A study of Mus musculus with 6 samples.

Results

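Cholesterol is made in the cell from acetyl-CoA, and the expression of 30 mouse genes of its synthesis and regulation was followed here in naive CD4 T cells with and without Trim28. The 30 were chosen by name from 16911 named genes of the expression table, with earlier results of these data known. They were 18 enzymes of synthesis, 5 genes of the SREBP system that senses sterols, and 7 genes of sterol transport, oxysterol response and storage. All 30 had a row, and 29 reached the mean of 10 normalized reads needed for testing. Nr1h3 did not.

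Naive CD4 T cells, taken from mice of the C57BL/6 strain, were enriched on magnetic beads and sorted before RNA was purified. One group was wild-type littermates (WT1 to WT3) and the other was Trim28 KO (KO1 to KO3), with 3 libraries each, all marked D0 in their titles. Trim28 encodes a corepressor that is brought to DNA by zinc finger proteins. No label names the promoter or Cre that removes Trim28, or the age and sex of the mice. Nor is it stated whether each library is a separate mouse, and p-values therefore cover only the spread between these 6 libraries.

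Reads assigned to the rows, recovered from the smallest value above 0 in each library, ran from 22005759 to 44372701. The sequencing depth itself is not known from this. Trim28 stood at 9.99% of its wild-type mean in the KO group. All 8 markers of CD4 T cells were read in every library, at a summed normalized count of 113739 to 140153. KO3 stood apart from the other libraries. All 6 B and plasma cell markers, both CD8 markers and all 6 proliferation markers were highest there, and the proliferation markers summed to 8875 in KO3 against 1194 in KO1, 1176 in KO2 and 1834 to 3117 in the wild-type libraries. Y-linked transcripts were read in WT1 and KO2 (13620 and 12680 normalized reads summed) and were at or under 2.39 in the other 4, so each group held 1 such library. The sum of the 4 regulatory T cell markers was 1332 to 1732 in the wild-type libraries and higher in every KO library, at 1857 to 4199.5. Of these, Il2ra, which encodes the surface protein CD25, rose (log2 fold change 1.43, limma adjusted p 0.0326), while Foxp3 was at 2.39 to 11.4 in all 6.

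In every cell, a run of cytosolic and membrane enzymes builds isoprenoid units through mevalonate, joins them into squalene and then closes and trims the sterol ring. Transcription of these enzymes is driven by the SREBP factors, which Scap escorts out of the endoplasmic reticulum when sterols are low and which the Insig proteins hold back when sterols are plentiful. Oxysterols act in the other direction through the LXR receptors, which raise cholesterol export. T cells are known to raise sterol synthesis when they begin to divide, while resting cells make less.

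Insig1 was the only 1 of the 29 tested genes that limma called as changed, and it was lower in the KO. The wild-type libraries WT1, WT2 and WT3 held 2514, 2335 and 2469 normalized reads, while KO1, KO2 and KO3 held 1560.0, 1845 and 1800.5. The groups lay well apart, and the KO mean was 71.1% of the wild-type mean. The log2 fold change on the log2(count + 1) scale was -0.49 (SE 0.10, n = 3 per group). The Benjamini-Hochberg adjusted p in limma was 0.0472, close under the threshold of 0.05. By the same rule 0.315% of all 13022 tested rows fell and 1.51% changed in either direction. Insig1 ranked 195 by p among the 196 rows called. It was called in 8 of 19 other settings, and without KO3 its adjusted p was 0.0268. Leaving out WT1, WT2, WT3, KO1 or KO2 ended the call, with adjusted p from 0.103 to 0.262, as did scaling to equal totals (0.110), voom weights (0.0580) and 4 further settings. Insig1 encodes an endoplasmic reticulum protein that retains Scap, and it is itself a textbook target of SREBP. Its row, NM_153526, lies on chromosome 5 at 28071412 to 28078662 of mm10, where a lncRNA gene, Gm35223, overlaps it. No source used here states whether the kit keeps strand, so reads of the 2 cannot be told apart where they overlap.

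**Figure D1:**
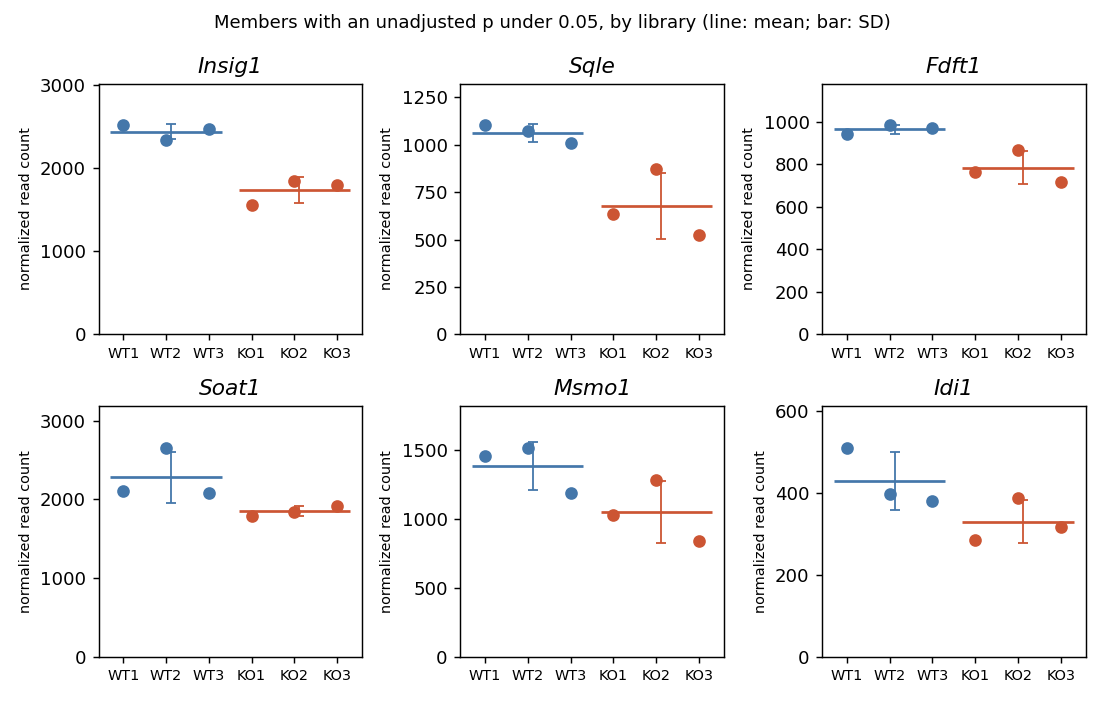
Normalized read count (vertical axes, from 0) in each of the 6 libraries for the 6 members with an unadjusted p under 0.05, with group means as lines and SD as bars. The KO mean is the lower in each panel, KO2 is the highest KO library for Insig1, Sqle, Fdft1, Msmo1 and Idi1, and the groups overlap for Msmo1 and Idi1.

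Another 5 members, Sqle, Fdft1, Soat1, Msmo1 and Idi1, had an unadjusted p under 0.05 without passing the adjusted test. With Insig1 that made 6 of 29, each with a KO mean below the wild-type mean. An unadjusted p under 0.05 with a lower KO value was found in 5.84% of all tested rows, and in either direction in 12.7%. None of the 29 had such a p with a higher KO value, against 6.84% of all rows. The members were listed with earlier results of these data known. These and later comparisons of the members with all rows are therefore description only.

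Sqle, the squalene epoxidase that carries out the first oxygenation and is a control point of the pathway, had the greatest difference of the 29. It was read at 1102, 1073 and 1007 in the wild-type libraries and at 635, 870.0 and 526 in KO1, KO2 and KO3. The 3 KO values were all below the wild-type values but spread widely among themselves. The KO mean was 63.8% of the wild-type mean (log2 fold change -0.68, SE 0.17, limma adjusted p 0.128). Without KO2, the KO library nearest to the wild type, Sqle was called as lower, at -0.87 on the log2 scale and an adjusted p of 0.0294. That was the 1 call in 19 other settings, over which the adjusted p reached 0.455. Sqle lies on chromosome 15 at 59315092 to 59331193.

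Fdft1, squalene synthase, commits farnesyl units to sterols and stands just before Sqle in the pathway. Its counts were 941, 984 and 969 in the wild type and 765, 870.0 and 719 in KO1, KO2 and KO3, again without overlap. The difference was smaller, at -0.30 on the log2 scale (SE 0.10, limma adjusted p 0.270). The gene overlaps Ctsb in the annotation, so its reads may not be separable from those of Ctsb.

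Msmo1, a methylsterol monooxygenase, takes part in the removal of methyl groups from the ring. It was read at 1453, 1513 and 1183 in the wild type and at 1026, 1281 and 836 in KO1, KO2 and KO3. KO2 lay above WT3, so the groups overlapped (log2 fold change -0.41, SE 0.17, limma adjusted p 0.340). Idi1, the isomerase of isopentenyl diphosphate, was read at 510.4, 398 and 381 in the wild type and at 286, 388 and 318 in KO1, KO2 and KO3, where KO2 lay above WT3 (log2 fold change -0.38, SE 0.16, adjusted p 0.391). Both enzymes showed the order seen for Sqle and Fdft1 in so far as KO2 was the highest of the KO libraries.

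Soat1 does not make cholesterol but esterifies it for storage. It was read at 2104, 2653 and 2082 in the wild type and at 1787, 1843 and 1911 in KO1, KO2 and KO3. The KO libraries were close together and all below the wild type, where WT2 stood high. The log2 fold change was -0.29 (SE 0.11, limma adjusted p 0.317).

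Promoters are shown, as a description of their letters, for members with an unadjusted p under 0.05. SREBP is known to act with 2 helper factors, NF-Y and Sp1, whose usual sites are the CCAAT box and the GC box. Whether these factors have a part in the KO values was not tested. Sequences are RefSeq's, from the 250 bases before the annotated start on the GRCm38.p6 build, 5′ to 3′ on the gene's strand. Of the 30 members, 25 had an entry, and Sqle and Fdft1 were among the 5 that did not. Capitals mark every match, on either strand, to the sterol regulatory element TCACNCCAC, the CCAAT box CCAAT, the GC box GGGCGG and an E-box-like SREBP site TCACNTGA. No matches overlapped in the printed sequences. Insig1 is at chr5:28071162-28071411 on the plus strand, Idi1 at chr13:8885356-8885605 on the plus strand, Msmo1 at chr8:64733579-64733828 on the minus strand and Soat1 at chr1:156474329-156474578 on the minus strand. Hmgcs1, at chr13:119690101-119690350 on the plus strand, was added after its letters were read, as the only member with a match to the sterol regulatory element.
Insig1: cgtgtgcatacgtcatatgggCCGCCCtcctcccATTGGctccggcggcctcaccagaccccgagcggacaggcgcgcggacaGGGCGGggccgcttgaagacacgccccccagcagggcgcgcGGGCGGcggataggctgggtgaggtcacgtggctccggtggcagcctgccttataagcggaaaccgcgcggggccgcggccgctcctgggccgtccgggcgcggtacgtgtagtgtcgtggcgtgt
Idi1: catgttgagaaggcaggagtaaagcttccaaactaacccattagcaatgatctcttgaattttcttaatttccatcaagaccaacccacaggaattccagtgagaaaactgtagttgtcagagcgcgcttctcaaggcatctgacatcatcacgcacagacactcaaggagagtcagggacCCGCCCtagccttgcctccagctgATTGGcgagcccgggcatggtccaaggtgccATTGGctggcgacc
Msmo1: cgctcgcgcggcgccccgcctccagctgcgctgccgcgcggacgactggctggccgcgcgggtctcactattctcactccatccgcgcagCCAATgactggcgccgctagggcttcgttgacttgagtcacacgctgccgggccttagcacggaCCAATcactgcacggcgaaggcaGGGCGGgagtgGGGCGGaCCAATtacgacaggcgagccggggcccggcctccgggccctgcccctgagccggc
Soat1: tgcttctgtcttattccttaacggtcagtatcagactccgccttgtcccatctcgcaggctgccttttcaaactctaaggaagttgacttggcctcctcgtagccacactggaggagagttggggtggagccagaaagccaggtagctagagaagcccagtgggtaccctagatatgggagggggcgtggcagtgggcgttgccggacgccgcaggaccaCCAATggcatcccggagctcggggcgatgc
Hmgcs1: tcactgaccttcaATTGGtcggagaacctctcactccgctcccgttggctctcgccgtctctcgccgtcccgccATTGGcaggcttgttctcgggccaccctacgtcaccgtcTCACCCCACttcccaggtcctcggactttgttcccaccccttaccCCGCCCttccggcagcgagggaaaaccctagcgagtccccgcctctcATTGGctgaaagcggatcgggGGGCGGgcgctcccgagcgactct

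Insig1 held 3 GC boxes and 1 CCAAT box, Msmo1 held 2 GC boxes and 3 CCAAT boxes, and Idi1 held 1 and 2. Soat1 held 1 CCAAT box and no GC box in this window. In Hmgcs1 the sterol regulatory element began 137 bases before the start, between CCAAT boxes beginning 176 and 45 bases before it. A CCAAT box was found in 22 of the 34 promoters of the 25 members (64.7%), and in 35.4% of 21263 promoters of protein-coding genes. A GC box was found in 24 of the 34 (70.6%) and in 42.6% of those promoters. The sterol regulatory element was in 1 of the 34 (2.94%), against 1.01%, and the E-box-like site was also in 1, of Insig2, against 3.56%. The 21263 promoters were not selected for expression in these cells. The 2 sets may therefore differ in more than the pathway, and the part of this in the shares was not tested. A match is a description of the letters, and a window without one says nothing about the factor.

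Among the 7 genes of the mevalonate steps, limma called none, and Idi1 alone reached an unadjusted p under 0.05. Their median log2 fold change was -0.18, which was the estimate of Fdps, a gene with low counts (95% interval -0.95 to 0.60). Mvk, mevalonate kinase, was read at 542, 397 and 514 in the wild type and at 387, 361 and 406 in KO1, KO2 and KO3 (log2 fold change -0.32, 95% interval -0.65 to 0.01). Acat2, the thiolase that joins the first acetyl units, had group means of 877 and 816. Its KO values, 810 to 826, fell inside the wild-type range of 741 to 982. Hmgcs1 (HMG-CoA synthase), Pmvk (phosphomevalonate kinase), Mvd (the decarboxylase) and Fdps (farnesyl diphosphate synthase) had means of 20.6 to 74.0 in either group. Mvd had the highest estimate of the 29, at 0.62 (95% interval -0.15 to 1.39), from 34.9, 20.9 and 23.2 to 29.3, 43.7 and 50.2. Its row is NR_028354, a non-coding transcript of the gene, so this is no measure of the coding transcript.

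Of the 11 genes that build squalene and the sterol ring, limma called 0, while 3 reached an unadjusted p under 0.05. Their median log2 fold change was -0.15, and 9 of the 11 estimates were below 0. Lss, which closes the ring, had wild-type values of 640.0, 694 and 697 and KO values of 639.7, 622 and 578, which lie apart by less than 1 normalized read (log2 fold change -0.14, SE 0.10). Cyp51, the lanosterol demethylase, had 2389, 2634 and 2109 in the wild type against 1816, 2522 and 1545 in KO1, KO2 and KO3, so KO2 again stood among the wild-type libraries. Sc5d, a sterol desaturase, followed the same order, with 1357, 1610 and 1266 in KO1, KO2 and KO3 and a wild-type mean of 1586. The sterol reductase Tm7sf2, the isomerase Ebp and the ketosteroid reductase Hsd17b7 had KO means at 90.0% to 92.6% of the wild type, with overlapping groups. Nsdhl, a dehydrogenase, had group means of 406 and 418. Dhcr7, which makes cholesterol by a terminal reduction, was the other gene of this group with an estimate above 0 (0.17, 95% interval -0.14 to 0.48). Its KO1 value of 932 stood above all others, while KO2 and KO3, at 734 and 683, were near the wild-type range of 634 to 719.

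**Figure D2:**
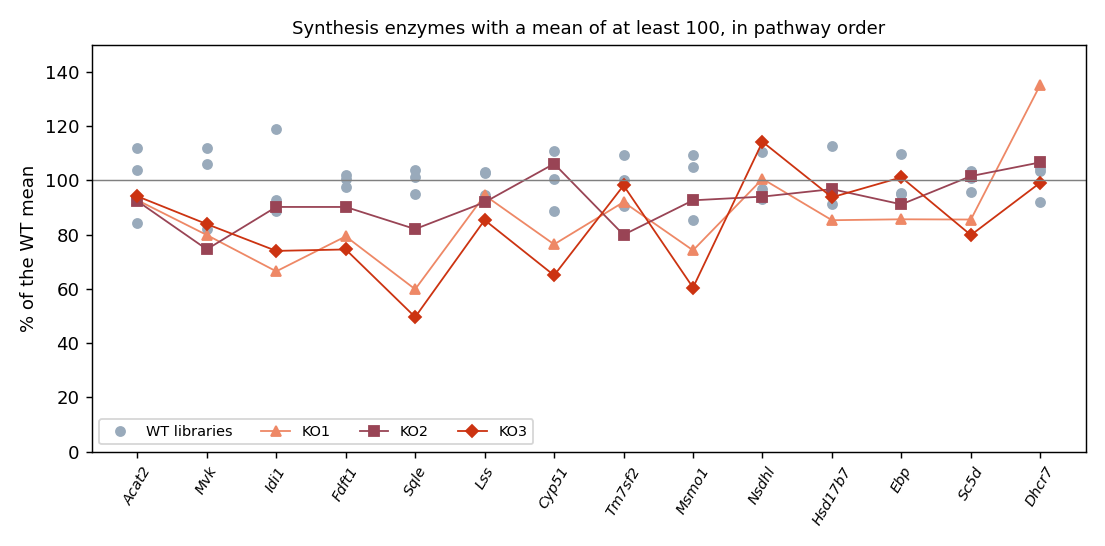
Normalized read count as a percentage of the wild-type mean (vertical axis) for the 14 synthesis enzymes whose mean reached 100 normalized reads, in the order of the pathway. Grey points are the wild-type libraries, and lines join the values of each KO library. KO1 and KO3 dip at Idi1, Sqle, Cyp51 and Msmo1, with the lowest value, 49.6%, at Sqle in KO3.

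The libraries differed in how low the enzymes stood. Over the 14 enzymes with a mean of at least 100 normalized reads, the median value was 85.4% of the wild-type mean in KO1, 92.1% in KO2 and 84.6% in KO3. In WT1, WT2 and WT3 it was between 100.6% and 101.7%. Each wild-type library is part of that mean, so medians near 100% follow from the measure. They do not show the spread between wild-type libraries. Single enzymes ranged from 82.0% to 118.7% in the wild-type libraries and from 49.6% to 135.3% in the KO libraries. In KO1 and KO3, 12 of the 14 were below the wild-type mean, and in KO2 11 were. In WT1, WT2 and WT3, 6, 7 and 6 were. The share over all tested rows was not taken for single libraries. Of all tested rows, 49.6% had an estimate below 0 for KO against WT. KO3, where Sqle, Fdft1, Cyp51, Msmo1 and Sc5d were lowest, was also the library with the highest proliferation, B cell and CD8 markers. KO1, with low proliferation markers, had enzyme values about as low. KO2, the nearest to the wild type, was the KO library with Y-linked transcripts (12680) and had the fewest reads assigned to rows (22005759). The sum of the 4 regulatory T cell markers was higher in all 3 KO libraries, but not each marker was. Foxp3 had group means of 8.71 in the wild type and 7.03 in the KO. Ikzf2 was lower in KO1 and KO2 (1375 and 1307) than in WT2 (1443), but higher than in WT1 (997) and WT3 (1028). In KO3 it stood at 3249. Ctla4 and Il2ra were higher in every KO library than in any wild-type library. Ctla4 was read at 129 to 156 in the wild type and 169 to 234 in the KO, and Il2ra at 151 to 188 and 358 to 714. The part of such other cells, or of these traits of KO2, in the values of Insig1 and the enzymes was not tested. In bulk RNA, fewer cells that express a gene and less of its RNA per cell cannot be told apart.

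The regulators of the SREBP system other than Insig1 did not pass the test. Srebf2, the SREBP that mainly drives cholesterol enzymes, was read at 4042, 5042 and 3923 in the wild type and at 6565, 5017 and 3389 in KO1, KO2 and KO3. Its KO libraries thus spanned the wild-type range on both sides (log2 fold change 0.16, 95% interval -0.34 to 0.66), and its estimate was below 0 without KO1. Srebf1, whose forms mainly drive fatty acid enzymes, had group means of 3494 and 3378, a log2 fold change of -0.05 and an interval of -0.27 to 0.17. With equal totals that estimate was 0.0055. Scap, the escort, was read at 26.2 to 59.4 over the 6 libraries. Insig2, the relative of Insig1, was read at 6.97 to 17.6, and its interval of -1.16 to 1.27 was the widest of the 29.

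Transport and storage genes gave 0 calls in limma among 6 tested, with Soat1 alone at an unadjusted p under 0.05. Npc1 and Npc2 pass cholesterol out of the lysosome. Npc2 was read at 23617, 22430 and 20935 in the wild type and at 19082, 20971 and 18682 in KO1, KO2 and KO3 (log2 fold change -0.19, 95% interval -0.40 to 0.02). Npc1 went the other way in its estimate, 0.23, with 3679 in KO1 and 3057 in KO2 above all wild-type values of 2373 to 2968 and 2402 in KO3 within them. Its gene overlaps Rmc1. Stard4, a carrier of sterols in the cytosol, had group means of 882 and 831.

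Mylip, a ubiquitin ligase that is induced through LXR and limits sterol uptake, was the 1 member whose KO values all lay above the wild-type values. It was read at 4373, 4567 and 4582 in the wild type and at 5136, 4673 and 5013 in KO1, KO2 and KO3. The gap was narrow, and the test did not pass (log2 fold change 0.13, SE 0.08, limma adjusted p 0.553). Of the 29, 1 lay apart on the higher side and 5 on the lower side, namely Insig1, Sqle, Fdft1, Lss and Soat1. The shares over all tested rows were 9.21% and 9.58%. Of the LXR receptors themselves, Nr1h2 was read at 26.2 to 48.7 over the 6 libraries. Nr1h3, which macrophages express strongly, was at 0 to 4.28 and was not tested.

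**Figure D3:**
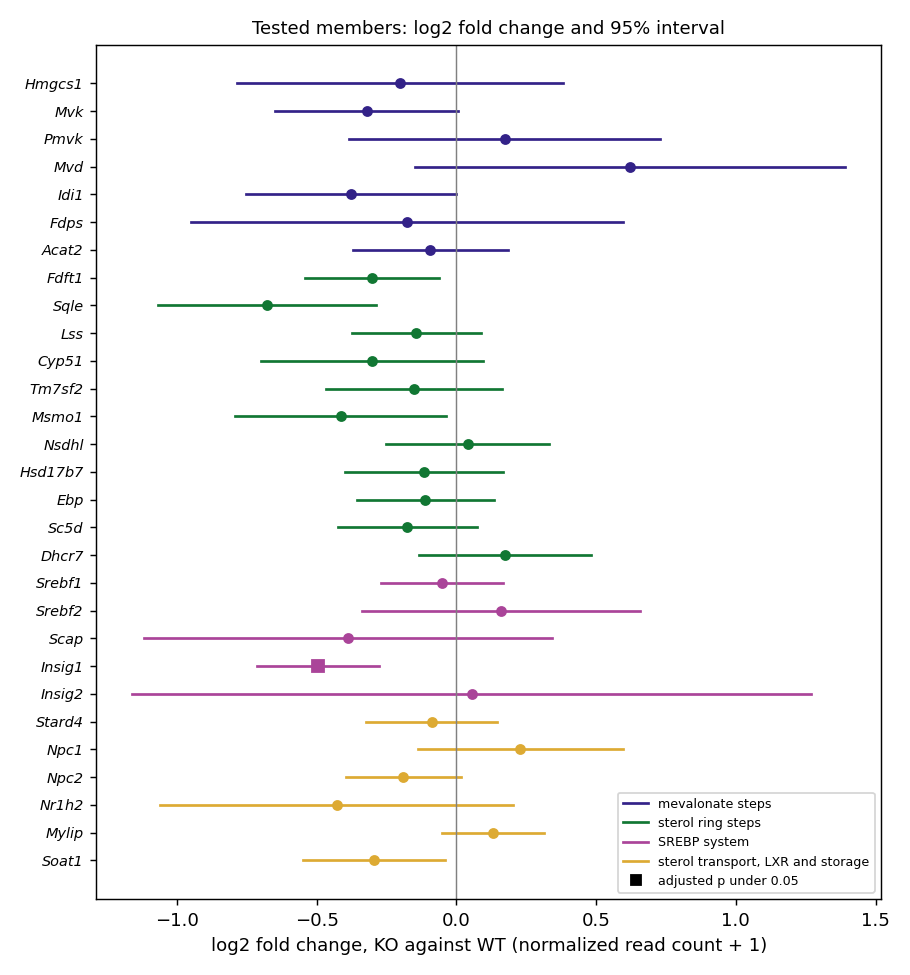
Log2 fold change of KO against WT on the log2(count + 1) scale (horizontal axis) for the 29 tested members, with 95% intervals from limma, coloured by role. Estimates lie below 0 for 21 genes, and the only square, for an adjusted p under 0.05, is Insig1.

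Across all 29 tested genes, 21 estimates were below 0 and 8 above, with a median log2 fold change of -0.15. Over all tested rows, 49.6% of estimates were below 0 and the median was 0.0019. The 29 include genes with low counts, which are described below. With a filter at a mean of 50, which keeps Hmgcs1 and Pmvk, 18 of 24 tested members were below 0. Their median was then -0.15, and that of all rows -0.0074. Without KO3 the members' median was -0.14, and with equal totals, which moved the median of all rows to 0.057, it was -0.097.

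Low counts need care in these genes. The 8 members with a mean under 100 normalized reads, Hmgcs1, Pmvk, Mvd, Fdps, Scap, Insig2, Nr1h2 and Nr1h3, each have 2 or more curated RefSeq transcripts. The 17 members with 1 transcript had means of 298 to 20953. Of 6420 genes with several transcripts, the median of the means was 104, against 311 for 8468 genes with 1. The shares with a mean under 100 were closer, at 49.6% and 42.0%. The other 5 of the 13 members with several transcripts, Mvk, Fdft1, Dhcr7, Srebf1 and Stard4, had means of 435 to 3436. Further rows of Insig2, Nr1h3, Pmvk and Scap in the table had means of 0.13 to 24.7. The second row of Pmvk had 24.7 against 69.6 in the row used, and the 2 further rows of Insig2 had 5.31 and 5.48 against 11.0. Hmgcs1, Mvd, Fdps and Nr1h2 had no further row. No source used here says how reads that several transcripts of a gene share were assigned, and the part of this in the low values was not tested. The counts of these 8 genes should therefore not be read as the level of the gene.

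**Figure D4:**
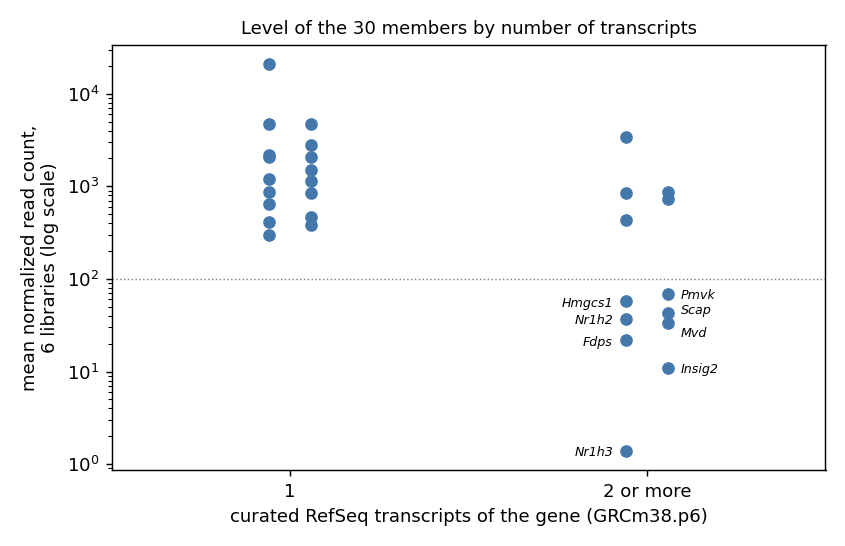
Mean normalized read count over the 6 libraries (vertical axis, log scale) of the 30 members, split by whether the gene has 1 curated RefSeq transcript or more. The 8 labelled genes below 100 are all on the right.

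Other genes of sterol and lipid metabolism, 90 in lists written with some of their results known, put the members in context. Of these 86 had a row and 74 were tested, of which 4 rose, 1 fell and 69 did not pass. Over all tested rows 1.19% rose and 0.315% fell. The median log2 fold change of the 74 was 0.04. None of the 3 tested genes of other sterol synthesis, of the 11 of SREBP processing or of the 17 of sterol uptake and trafficking was called, and in these 3 lists only Stard3, a late endosome sterol carrier, had an unadjusted p under 0.05 (1768 and 1474 in the group means).

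**Figure D5:**
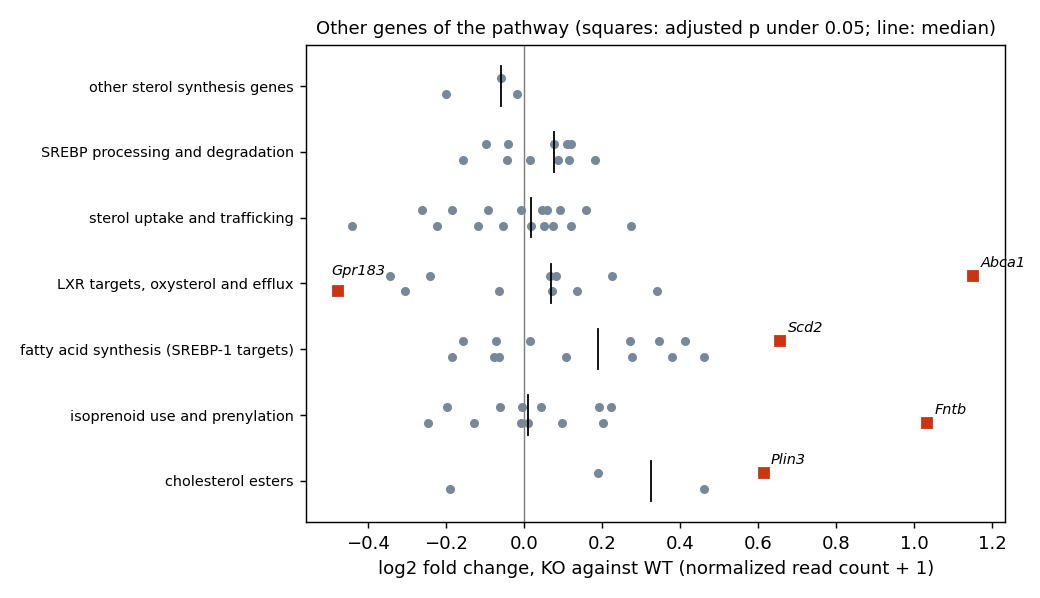
Log2 fold change of KO against WT on the log2(count + 1) scale (horizontal axis) for the 74 tested genes of 7 related lists. Squares mark the 5 genes with an adjusted p under 0.05, of which Gpr183 alone lies below 0.

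Of the 5 calls, Abca1 and Gpr183 came from the LXR and oxysterol list, Fntb from that of isoprenoid use, Scd2 from the fatty acid genes and Plin3 from those of cholesterol esters. Abca1, the exporter induced by LXR, had KO values 2.22 times the wild-type mean on average (log2 fold change 1.15, SE 0.10, limma adjusted p 0.000471). Abcg1, the other exporter induced by LXR, had group means of 6576 and 7690 and did not pass (adjusted p 0.365). Abca7 and Arl4c had lower KO means, 79.2% and 84.6% of the wild type, and did not pass either. Gpr183, a receptor for oxysterols, was the 1 fall of the 12 tested genes of the LXR and oxysterol list, at -0.48 on the log2 scale, and its gene lies within Ubac2 in the annotation. Ch25h and Cyp7b1, enzymes on the way to its ligand, were read at 0 to 6.95 and at 0 to 1.54.

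Fntb, the beta subunit of protein farnesyltransferase, uses the farnesyl diphosphate that Fdps makes. It was read at 1096, 1157 and 1214 in the wild type and at 2580.3, 2493 and 2052 in KO1, KO2 and KO3. All KO libraries stood far above the wild type, and the mean was 2.06 times higher (log2 fold change 1.03, SE 0.11, limma adjusted p 0.00168). Fnta, the alpha subunit, had a log2 fold change of 0.01 (95% interval -0.24 to 0.26). The Fntb gene overlaps the lncRNA genes Gm46357 and Gm46358. It was the only call among 13 tested genes of isoprenoid use and prenylation.

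Scd2, a fatty acid desaturase under SREBP control, rose from 1938, 2633 and 2172 to 3656, 3653 and 3255. The KO values were close together and clear of the wild type (log2 fold change 0.66, SE 0.12, limma adjusted p 0.0387). It was the 1 call among 14 tested fatty acid genes, where Elovl6 and Gpam had higher KO means (1451 against 1096 and 609 against 502) without passing, and Fasn, fatty acid synthase, had a log2 fold change of 0.01. Plin3, a coat protein of lipid droplets, rose from 1153, 1109 and 1237 to 1682, 1708 and 1977 (log2 fold change 0.61, SE 0.10, adjusted p 0.0209). Scd2 was called in 11 of 19 other settings. Its call ended without WT1, WT3, KO1 or KO2, without the mean-variance trend (adjusted p 0.160), with voom weights (0.0517), with the Y-linked covariate (0.0643) and in the 4 libraries with nearly no Y-linked transcripts (0.648). Plin3 was called in 13 of the 19, and its call ended without WT1, WT2, WT3 or KO2, without the trend (0.0979) and in those 4 libraries (0.394). Fntb and Abca1 were called in 18 of 19 other settings, the exception for both being the same 4 libraries. Gpr183 was called in 10 of the 19, with the call ending when any library other than KO3 was left out.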

How the data were processed

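The authors deposited 1 table of 19048 transcript rows and 6 columns, 1 per library, on a log10 scale. The submitters' processing notes name STAR, HTSeq, DESeq2 and the mm10 build, without version or role. Turned back as 10 to the value minus 1, all values were whole multiples of 1 step per library (within 0.01), so each is a whole read count scaled by a factor of its library. Rows were named from RefSeq (18811) and GENCODE M21 (104). For a gene with several rows, the row with the highest total was used.

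log2(normalized count + 1) was fitted in limma 3.58.1 (R 4.3.3) with the mean-variance trend over the 6 libraries, without covariates. Testing took the 13022 rows whose mean was at least 10, and a call is a Benjamini-Hochberg adjusted p under 0.05 over all of them, two-sided. On simulated counts, the fit called 92.1% of 89 rows changed by 1 and 100% of 111 changed by 2 on the log2 scale, among 13018, with 11 false calls. All members' estimates were smaller than these changes, so the shares say nothing of changes of the members' size. The simulation gave every row the same dispersion (spread between libraries) and held no library that stood apart, as KO3 did. Neither the shares nor the false calls therefore carry over to these data.

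The members and lists were chosen with earlier results of these data known. All 30 members are named. Values in every library are given for members that are called, have an unadjusted p under 0.05 or do not overlap, and for some others. Of the related lists, genes called or with such a p are named. Other genes were added after their values were seen. Some planned genes are not reported here. Alternatives were the pseudocount, filter, scaling, variance model, covariates, rows summed and each library left out.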

Additional observations from a re-analysis of the deposited data

How the results depend on the processing

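The count of 1 called member was 0 with equal totals, without the mean-variance trend, with voom weights, with the replicate block, with the Y-linked covariate and in the 4 libraries with nearly no Y-linked transcripts. Leaving out 1 library gave 0 to 1. The called gene was Insig1 without KO3, and Sqle without KO2. The 5 calls among related genes became 2 without the trend, 3 with the Y-linked covariate, 0 in the 4 libraries with nearly no Y-linked transcripts and 2 to 5 without 1 library. Over all rows 196 were called, against 124 without the trend, 37 in those 4 libraries, and 113 (without KO2) to 553 (without KO3) with 1 library left out. It was 124 without WT1 and 127 without WT3.

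Estimates near 0 changed sign. Nsdhl was at -0.014 with quantile normalization, -0.0099 without WT1 and -0.037 without KO3, and reached 0.11 without WT3. Srebf1 was at 0.0055 with equal totals, 0.016 without KO2 and 0.012 in the libraries with nearly no Y-linked transcripts, and reached -0.099 without KO3. Srebf2 was at -0.063 without KO1 and 0.41 without KO3. Insig2 was at -0.011 with quantile normalization, -0.19 without WT1, -0.065 without WT3, -0.071 without KO1 and -0.065 without KO3, and reached 0.30 without KO2 and 0.31 with the rows of a gene summed. The cause was not tested.

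Same-numbered libraries did not deviate together in every pair (correlations -0.31, 0.26 and 0.36), and WT2 correlated best with KO1. No label states whether same-numbered libraries are paired, and with 3 libraries per group these correlations cannot decide it. With the replicate block 175 rows, 0 members and 4 related genes were called. For Insig2, at 6.97 to 17.6 normalized reads, the 95% interval of the log2 fold change ran from -1.16 to 1.27.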
